A study of Drosophila melanogaster with 2 samples.

Results

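Glass occupancy was examined at 6 genes of the antioxidant defence of Drosophila melanogaster. They were Cat, Sod1, Sod2 and Sod3, which encode enzymes, and cnc and Keap1, which encode regulators. Glass, the product of gl, is a zinc finger transcription factor of the developing eye, and it was mapped by chromatin immunoprecipitation followed by sequencing in whole pupae. The animals came from 1 transgenic line with GFP at the C terminus of Glass, and every sample carried it. They were pupae of the stage labelled 24 hour, with males and females pooled, and chromatin was sonicated to a size range of 200 to 800. The promoter of the transgene is not given in the sources used here. There were 2 biological replicates of this 1 group and no other condition, so that nothing could be compared between conditions. Signal from a whole animal pools its tissues, and the labels name no tissue or cell type. The free text of both labels calls them input controls, whereas the antibody field and the deposited lists describe ChIP of gl, and they were read as ChIP.

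The genes are 6 of 13945 protein-coding genes, and a peak was counted for a gene when its summit lay in the span of the gene extended by 1 kb to both sides. The optimal list, to which the authors applied an irreproducible discovery rate (IDR) threshold, held 11 such summits among 4809 peaks. The pooled list held 32, the list of replicate 1 held 33 and that of replicate 2 held 34, each among 30000 entries that include background by design. The genes were chosen by the summits of these same lists in their spans, so the counts and signal values below are descriptions and were not tested. Height is the signal value of the authors' peak caller, which is comparable within a list only; rank 1 is the strongest entry of a list, and "strongest entries" of a replicate means its 4809 strongest.

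Antioxidant enzymes work in sequence. Superoxide dismutases turn superoxide into hydrogen peroxide, and catalase, an enzyme of the peroxisome, splits hydrogen peroxide into water and oxygen. The long isoform of cnc, CncC, is the fly relative of the mammalian factor Nrf2; it pairs with a small Maf protein and activates detoxification and antioxidant genes through a motif called the antioxidant response element. Keap1 binds CncC and holds it in check, in mammals by handing its partner to a Cul3 ubiquitin ligase.

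The windows around 5 of the 11 summits are shown. They hold the strongest peak of Cat, Sod1 or Keap1, or a match to a motif discussed below. Other summits of cnc and Keap1 also have a match discussed below, and their windows are not shown. Bases are from the plus strand of the dm6 assembly in RefSeq, with the summit at the middle base, and capitals mark a match to a motif on either strand.

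Cat, strongest summit (chr3L:18822866-18822966): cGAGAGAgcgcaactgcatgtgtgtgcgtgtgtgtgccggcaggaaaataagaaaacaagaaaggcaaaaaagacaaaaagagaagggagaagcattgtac
Cat, weaker summit (chr3L:18825102-18825202): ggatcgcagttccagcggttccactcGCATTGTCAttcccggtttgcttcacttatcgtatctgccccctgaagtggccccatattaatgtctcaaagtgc
Sod1 (chr3L:11113385-11113585): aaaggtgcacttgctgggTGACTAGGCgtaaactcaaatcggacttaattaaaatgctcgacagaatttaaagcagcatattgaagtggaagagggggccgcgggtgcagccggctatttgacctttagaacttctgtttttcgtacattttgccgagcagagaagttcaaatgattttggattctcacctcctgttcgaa
cnc, summit with GAGAGA (chr3R:23215006-23215106): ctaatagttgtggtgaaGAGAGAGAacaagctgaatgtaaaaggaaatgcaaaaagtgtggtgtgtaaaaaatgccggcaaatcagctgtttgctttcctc
Keap1, strongest summit (chr3R:17080793-17080893): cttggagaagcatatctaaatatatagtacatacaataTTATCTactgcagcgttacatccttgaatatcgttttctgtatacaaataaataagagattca

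Capitals are GAGAGA in the first window, TGACNNNGC (on the minus strand) in the second and TGACNNNGC in the third. In the fourth they are 2 overlapping copies of GAGAGA, and in the last AGATAA on the minus strand. For cnc the window shown is not that of its strongest summit, which held none of the 9 motifs within 50 bp.

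Of the 6 genes, 5 had at least 1 optimal summit, where 23.1% of all protein-coding genes had one. Cat and Keap1 had 2 each, Sod1 and Sod2 had 1 each, cnc had 5, and Sod3 had none. By the strongest optimal summit the order was Cat (signal value 3268), Keap1 (479.5), Sod1 (317.6), cnc (223.9) and Sod2 (130.1). The summits other than the strongest of Cat were within the ordinary range of the list, whose median was 200.4 and whose lowest value was 127.0. Among the 3224 genes with an optimal summit, ordered by their strongest one, Cat was at position 2, Keap1 at 558, Sod1 at 1071, cnc at 1663 and Sod2 at 3118.

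**Figure D1:**
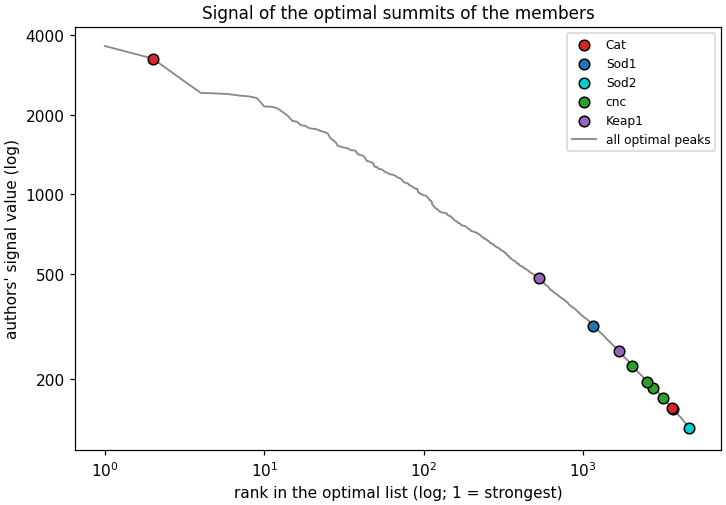
Signal value (y axis, log scale, authors' units) against rank (x axis, log scale, 1 is the strongest) for all 4809 optimal peaks (line) and for the 11 optimal summits at the antioxidant genes (points, coloured by gene). The strongest Cat summit, at 3268, has rank 2, and the other 10 points lie between 130.1 and 479.5.

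Part of that order depended on the replicate. Cat was first of the 6 in both replicates. In replicate 1 the strongest entries of the other genes ranked 278 (Keap1), 1642 (Sod1), 1806 (cnc), 3414 (Sod2) and 9396 (Sod3). In replicate 2 they ranked 847 (Sod1), 1184 (Keap1), 1564 (cnc), 3997 (Sod3) and 19748 (Sod2). Keap1 and Sod1, and likewise Sod2 and Sod3, therefore changed places, and the ranks of Sod1 and cnc overlapped between replicates. These ranks were not tested.

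Each of the 11 optimal summits had an entry with a summit within 200 bp in both replicate lists, as had 97.3% of all optimal peaks. The summits of matched entries lay at most 43 bp apart at these genes, against a median of 27 bp over all optimal peaks. Among the strongest entries of both replicates were 7 of the 11, and 63.3% of all optimal peaks. The ratio of the larger to the smaller replicate rank had a median of 1.94 at the 11 summits and 1.88 over all optimal peaks. Replicate 1 gave the weaker rank at 7 of the 11 summits, and at 48.7% of all matched optimal peaks.

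**Figure D2:**
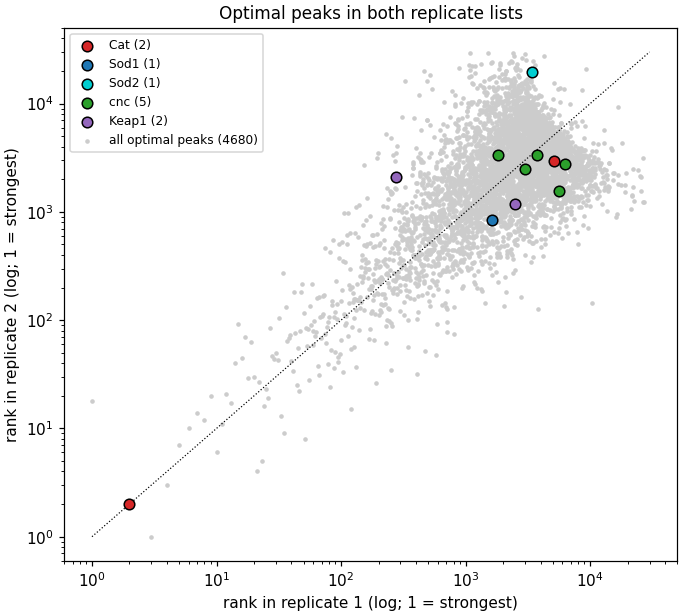
Rank in replicate 2 (y axis, log scale) against rank in replicate 1 (x axis, log scale) for the 11 optimal summits at the antioxidant genes (coloured) and for the 4680 optimal peaks matched in each of the replicate lists (grey); the dotted line marks equal ranks. The strongest Cat summit has rank 2 on both axes, the Sod2 summit has ranks 3414 and 19748, and the strongest Keap1 summit has ranks 278 and 2123.

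Cat (FBgn0000261) spans 5585 bp on the plus strand of 3L, from 18822604 to 18828188, and has 1 annotated TSS. Its strongest summit lay in an intron at 18822916, 312 bp downstream of the TSS. The signal value was 1463 in replicate 1 and 1793 in replicate 2, rank 2 in each, and the summits of the replicates were 5 bp apart. The pooled peak was 581 bp wide, and 0.769% of optimal peaks were wider; the most common width was 390 bp. HipHop, which encodes a telomere capping protein, ends upstream of Cat, and the summit also lay within 1 kb of its span.

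The weaker optimal summit of Cat lay 2.24 kb further into the gene, also in an intron, at 18825152. Its signal value was 69.7 in replicate 1 (rank 5094) and 83.3 in replicate 2 (rank 2955), so that it was among the strongest entries of replicate 2 alone. The strongest summit was 21.1 times as high as this one in the optimal list, 21.0 times in replicate 1 and 21.5 times in replicate 2, so the contrast within the gene was nearly the same in both. A pooled entry between them, at 18824307, had a signal value of 99.7 (rank 6863) and was outside the optimal list. Of 1222 genes of like length, from 80% to 125% of that of Cat, 29.8% had an optimal summit and 6.87% had 2 or more.

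By the signal values in the 2 replicates, the optimal peaks most like the strongest peak of Cat were found by their distance on the log10 scale, over these 2 samples. The nearest lay 106 bp from a TSS of each of CG8788 and CG44286, at a distance of 0.0792, with ranks 4 and 3 in replicates 1 and 2. The next lay in the span of dnr1, an inhibitor of a caspase pathway, at a distance of 0.0875 (ranks 3 and 1). The TSS nearest to this peak was that of CG11362, 7690 bp away. The third lay in CG13204, 743 bp from a TSS, at a distance of 0.182 (ranks 10 and 6). These are also the peaks ranked 3, 1 and 4 in the optimal list.

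Sod1 (FBgn0003462), the cytosolic copper and zinc superoxide dismutase, spans 1460 bp on the minus strand of 3L, from 11112281 to 11113740. Its 1 optimal summit lay in an intron at 11113485, 255 bp downstream of the TSS. The signal value was 154.1 in replicate 1 (rank 1642) and 164.1 in replicate 2 (rank 847), with summits 1 bp apart. The summit was thus among the strongest entries of both replicates, at the same base or nearly so. Replicate 1 had a further, weaker entry at 11113698, 42 bp downstream of the TSS, with a signal value of 38.1 (rank 11361). The peak was 199 bp wide, narrower than the common width. It lay within 1 kb of the end of FoxK, a forkhead gene, but the next TSS of another gene was 3795 bp away. Of 2540 genes of like length 16.9% had an optimal summit.

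Sod2 (FBgn0010213), the mitochondrial manganese superoxide dismutase, spans 1131 bp on the minus strand of 2R, from 16772785 to 16773915. The summit counted for it, at 16772662, lay outside the gene, 123 bp beyond its 3′ end and 1253 bp from its TSS. It was 9 bp from the TSS of unc-104, which encodes a kinesin of axonal transport, in the 5′ UTR of that gene. The signal value was 92.3 in replicate 1 (rank 3414) and 22.4 in replicate 2 (rank 19748, −log10 q of 0.657). The ratio of these ranks, 5.78, was exceeded by 7.41% of optimal peaks. Close to the TSS of Sod2 itself, replicate 1 had an entry of rank 7124 at 16774024, and the pooled list had one at 16773937 with a signal value of 60.5 (rank 12783). Replicate 2 had no entry close to that TSS. Of its entries counted for Sod2, the nearest lay 1087 bp downstream of it, at 16772828 (rank 29901). Of 2196 genes of like length 13.9% had an optimal summit.

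Sod3 (FBgn0033631), an extracellular copper and zinc superoxide dismutase, spans 3768 bp on the minus strand of 2R, from 11380347 to 11384114. It had no optimal summit. The pooled list held 1 entry, 131 bp upstream of the TSS at 11384245, with a signal value of 98.9, rank 6954 and a −log10 q of 3.44. In replicate 2 the entry there had a signal value of 69.2 and rank 3997, among the strongest entries, with the highest −log10 q of that list, 4.08. In replicate 1, 2 entries lay at the start of the gene, with signal values of 44.4 (rank 9396) and 43.9 (rank 9530). Sod3 was thus below the authors' threshold with replicate 1 weaker, and Sod2 above it with replicate 2 weaker. Of 1649 genes of the length of Sod3, 24.4% had an optimal summit. In the pooled list 62.0% of all protein-coding genes had an entry, and all 6 genes did.

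cnc (FBgn0262975) spans 41.1 kb on the minus strand of 3R, from 23185580 to 23226711, and has 10 annotated TSSs. Its 5 optimal summits were spread over 31.8 kb, with gaps of 4104 to 11174 bp, and had signal values of 152.8 to 223.9. In introns lay 4 of them, and the other, at 23221901, lay in a 5′ UTR 60 bp from a TSS. Within 1 kb of a cnc TSS lay 4 of the 5; the summit at 23210952 was 3605 bp from the nearest. All were nearer to a TSS of cnc than to that of any other gene, although fzo, a mitofusin gene of the male germ line, is nested in cnc and ends within 1 kb of the summit at 23201251.

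No single summit of cnc dominated, and the replicates did not share the strongest one. The summit at 23190077 was the strongest in replicate 1 (signal value 144.5, rank 1806) and had 77.7 in replicate 2 (rank 3323). The summit at 23215056 was the strongest in replicate 2 (117.9, rank 1564) and had 65.2 in replicate 1 (rank 5612). The summit at 23221901 ranked 3015 and 2506 in replicates 1 and 2, that at 23201251 ranked 3758 and 3353, and that at 23210952 ranked 6277 and 2771. In replicate 2 all 5 were among the strongest entries, and in replicate 1 this held for 3 of them. Genes with 5 or more optimal summits made up 1.13% of all protein-coding genes. Of 294 genes of like length, however, 52.4% had an optimal summit and 11.9% had 5 or more, with a median of 1.

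**Figure D3:**
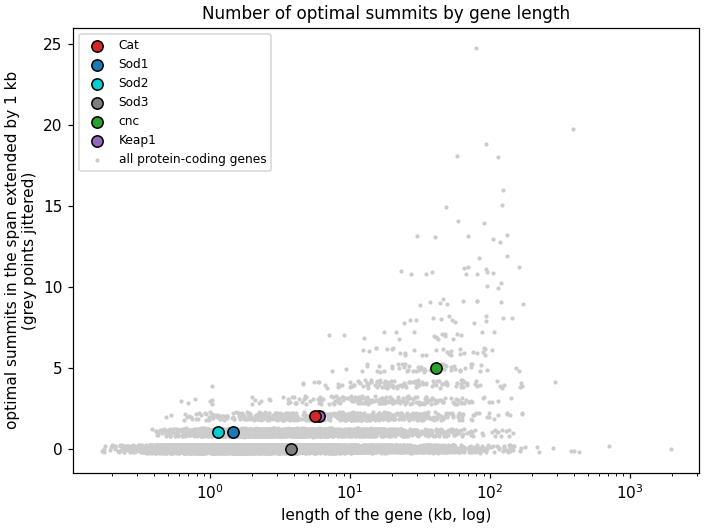
Number of optimal summits in the span extended by 1 kb (y axis) against gene length (x axis, kb, log scale) for the 6 antioxidant genes (coloured) and all 13945 protein-coding genes (grey, jittered by up to 0.25). cnc, at 41.1 kb, has 5 summits; Sod3, at 3.77 kb, has none, and Cat and Keap1, at 5.59 and 6.00 kb, have 2 each.

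Keap1 (FBgn0038475) spans 6004 bp on the minus strand of 3R, from 17073942 to 17079945. Its strongest summit, at 17080843, lay 898 bp upstream of its first TSS. That position is in an intron of the divergent neighbour kuk, which encodes a protein of the nuclear envelope, 599 bp from the TSS of kuk and so nearer to it than to Keap1. The signal value was 376.9 in replicate 1 (rank 278) and 100.4 in replicate 2 (rank 2123). The ratio of these ranks, 7.64, was the highest of the 11 summits, and 4.04% of optimal peaks exceeded it. The height of this peak in the optimal list therefore comes with unequal replicates.

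The other optimal summit of Keap1 lay inside the gene, in an intron at 17079422, 523 bp downstream of the first TSS and 822 bp from that of kuk. It had a signal value of 114.8 in replicate 1 (rank 2503) and 138.2 in replicate 2 (rank 1184). In replicate 2 it was stronger than the upstream summit, and in replicate 1 weaker. Of 1144 genes of like length 30.6% had an optimal summit and 8.04% had 2 or more.

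**Figure D4:**
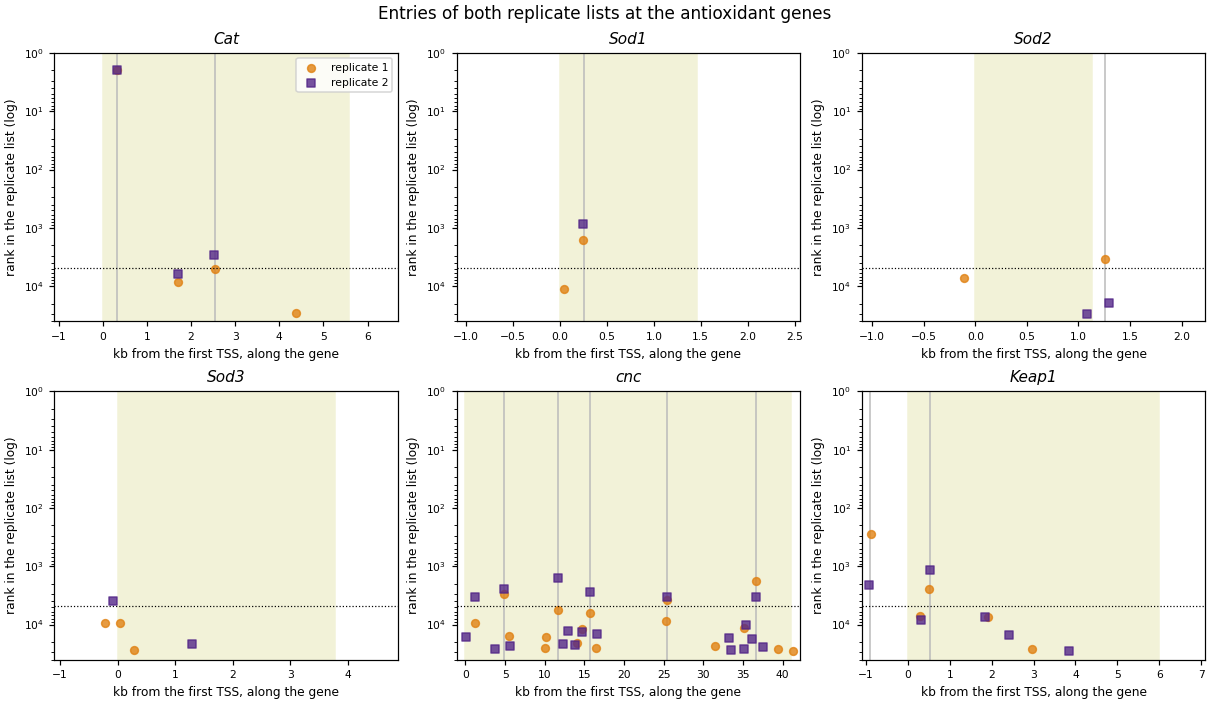
Rank (y axis, log scale, strongest at the top) of every entry of the replicate 1 list (circles) and the replicate 2 list (squares) against distance from the first TSS of each gene, in kb in the direction of transcription (x axis). Shading marks the gene, grey lines the optimal summits and the dotted line rank 4809; the 2 replicates coincide at rank 2 at Cat, and at Sod2 and Sod3 each has an entry above the dotted line in 1 replicate alone.

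The weakest optimal summit at these genes, that of Sod2 (signal value 130.1, rank 4628 of the pooled list), was close to the authors' threshold. The next weakest, that of cnc at 23210952 (152.8, rank 3658), was further above it. Just outside the optimal list were an entry of Keap1 at 17079621 (125.4, rank 4905) and one of cnc at 23225539 (122.9, rank 5061). Both of these outside entries had the same −log10 q value, 4.10, as all optimal peaks.

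With the strongest entries of each replicate in place of the optimal list, 5 of the 6 genes had a summit in replicate 1, where 22.8% of all protein-coding genes had one, and 5 in replicate 2, where 23.1% had one. Sod3 was the gene without one in replicate 1, and Sod2 in replicate 2. Cat, Sod1, cnc and Keap1 had a summit in the optimal list and among the strongest entries of both replicates, which held for 17.3% of all protein-coding genes.

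By position, 8 of the 11 summits lay at most 1 kb from one of the gene's own TSSs, and 9 from any TSS. At cnc, a long gene with 10 annotated TSSs, lay 4 of the 8 within 1 kb of an own TSS. The rule counts summits in a gene extended by 1 kb, so a summit counted for a short gene cannot lie far from its TSS. How much of the closeness comes from this rule was not tested. Of the 4109 optimal summits in such a span of any protein-coding gene 54.5% were within 1 kb of a TSS, and of all optimal summits 46.5% were. Introns of the gene held 8. The summit of Sod2 and the upstream summit of Keap1 were nearer to a TSS of another gene. No share over all optimal peaks is given for introns or for summits nearer to another gene, so those counts describe the 11 summits alone. The share of G and C within 50 bp of the summit had a median of 46.5%, with a range of 28.7% to 57.4%, and was above the median of all optimal peaks, 37.6%, at 9 of the 11. Base composition and distance to a TSS were not taken apart in this comparison.

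Among 9 motifs, searched on both strands within 50 bp of the summit, 5 pairs of a motif and a summit were found at the 11 summits. TGACNNNGC, the core of the antioxidant response element, was at 1 of the 11, the weaker summit of Cat, and at 2.31% of all optimal peaks. Within 100 bp it was also at the summit of Sod1, shown above, and at 5.03% of all optimal peaks, which makes 2 of the 11. GAGAGA, the letters bound by the GAGA factor, was at the strongest summit of Cat and at 1 of cnc, and at 7.88% of all optimal peaks. CAGGTA, of Zelda, was at the Keap1 summit inside the gene (1.95% of all), and AGATAA, of GATA factors, at the other (6.53% of all).

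The remaining 5 motifs were at none of the 11 summits within 50 bp. They were CAAAGTCC (1.95% of all optimal peaks), which was found in an earlier search of these same peaks, TGANTCA of AP-1 (2.64%), TATCGA of DREF (3.56%), the E-box CACGTG (0.915%) and the forkhead letters GTAAACA (2.95%). Within 100 bp TATCGA was at 2 summits of cnc (7.74% of all optimal peaks) and GTAAACA at 1 of these (5.45%). TGANTCA was at none within 100 bp and at the upstream summit of Keap1 within 150 bp (7.09%). CAAAGTCC and CACGTG were at none within 150 bp. A match or its absence describes letters in a window and says nothing of binding by the factor named.

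Other genes of redox metabolism and of the peroxisome were described through 8 lists with 67 genes. An optimal summit was found at 32 of them (47.8%), against the 23.1% of all protein-coding genes, and among the strongest entries of replicates 1 and 2 at 29 and 32 of them, against 22.8% and 23.1%. The median length of the listed genes, 2.10 kb, was close to that of all protein-coding genes, 2.17 kb. The median of their strongest signal, 211.8, was below that of all genes with a summit, 231.1. The lists were drawn up with earlier results of these peaks known, and none was tested. The strongest summits of the 32 genes were 30 different peaks, and for 9 of the 32 genes this summit was nearer to a TSS of another gene.

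Of 7 partners of cnc and Keap1 and other regulators, 5 had a summit, with the strongest at foxo, a forkhead factor of insulin signalling and stress (1187, rank 69 in both replicates), and Sesn, a sestrin (675.7, ranks 172 and 513). maf-S, the small Maf partner of CncC, and ref(2)P, the fly p62, had none; they are named after their values were seen. Of 4 genes for the supply of NADPH, the reductant of these systems, 3 had a summit, with Zw, glucose-6-phosphate dehydrogenase, at 764.8 (ranks 222 and 173) and Men, malic enzyme, at 461.2 (ranks 1109 and 305).

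Of 15 genes of thioredoxins and peroxiredoxins 6 had a summit, led by Prx2 (298.9), beyond the 3′ end of that gene, and by 1 peak shared by TrxT and dhd (168.4). Of 11 glutathione genes 6 had one, led by GstO3, a glutathione transferase (281.9), and Gclc, the catalytic subunit of the first enzyme of glutathione synthesis (279.2); the summit of Gclc was 4405 bp from the TSS of Gclc and 183 bp from that of CG2258. Of 8 genes of superoxide sources, copper delivery and related enzymes 4 had one, led by Duox, a dual oxidase (262.3, ranks 828 and 9536), and Atox1, a copper chaperone (174.5).

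Iron and metal binding genes had a summit at 2 of 6, and these were the ferritin genes Fer1HCH and Fer2LCH, which are divergent and share a peak of 353.3. Of 14 peroxins, the proteins that build the peroxisome in which catalase resides, 4 had one (28.6%), led by Pex11ab (803.0, ranks 103 and 352) and Pex6 (196.5, rank 1531 in replicate 1 and no entry within 200 bp in replicate 2). The summit of Pex11ab was 131 bp from its TSS and 98 bp from that of CG8320. Both DJ-1 genes, relatives of a human gene of oxidative stress resistance, had one, at DJ-1alpha (275.3) and dj-1beta (183.4), in each case beyond the 3′ end and within 150 bp of the TSS of another gene, shot and cindr.

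**Figure D5:**
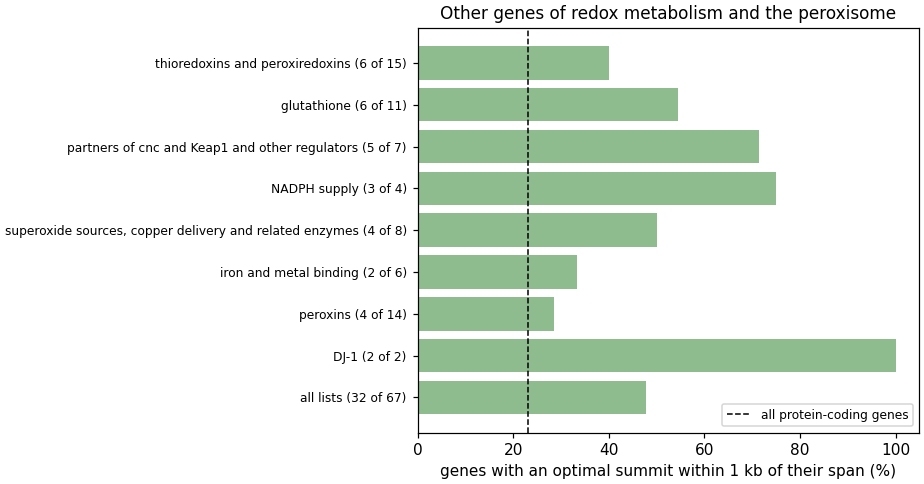
Share of genes with an optimal summit in their span extended by 1 kb (x axis, %) in each of the 8 lists and in all of them together (y axis, with counts); the dashed line is the share of all protein-coding genes. All bars end right of the line at 23.1%, from 28.6% (peroxins) to 100% (DJ-1, 2 of 2 genes).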

How the data were processed

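Peaks were taken as the authors deposited them for dm6: 1 list per replicate, 1 from the pooled alignments, and the optimal list derived from the others, per the deposited text files. Each list holds the authors' signal value and a −log10 q value, both deposited per peak, with a summit offset in bp; the p-value column is empty. Per those text files the replicate lists came from the alignment of each replicate and a shared control. Aligner, peak caller and read depth are not given in the sources used here. Without depth no counting interval could be computed, and replicates were compared by rank.

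Genes were those of Ensembl release 115 on the major chromosome arms, and sequence was read from the RefSeq copy of the same assembly, where 99.8% of annotated start codons read ATG. Summits are 1-based. Entries were matched to the nearest summit within 200 bp, and genes of like length spanned 80% to 125% of the length of a gene. The members, lists and motifs were chosen with earlier results of these data known. Of the listed symbols, 7 were replaced by the current ones, and Pex11 stands for 2 genes. Genes were named by rule: the 6 members, up to 2 genes of each list with the strongest summit, genes whose extended span also holds a summit of a member, and the nearest genes of the 3 peaks most like that of Cat. Outside that rule, maf-S and ref(2)P, and the neighbours CG2258, CG8320, shot and cindr of listed genes, were named after their values were seen. Also outside it is dnr1, which holds 1 of the 3 peaks most like that of Cat. Scripts used Python 3.11.15, numpy 2.4.6 and pandas 2.3.3, and were checked on simulated summits. No test was run, since there was 1 group and the genes were chosen from these peaks.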

Additional observations from a re-analysis of the deposited data

How the results depend on the processing

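No paired analysis was possible because there was 1 group of 2 replicates. Counts of genes with a summit are given with the share of all protein-coding genes under the same setting. With spans not extended they were 4 of the 6 genes and 19 of the 67 listed genes (28.4%, against 12.8% of all). With the 2404 strongest optimal peaks they were 4 and 17 (25.4%, against 13.6%), and with summits within 1 kb of the gene's own TSS 4 and 24 (35.8%, against 17.0%). Spans extended by 5 kb gave 5 and 43 (64.2%, against 41.3%), and pooled entries of the highest q value 5 and 35 (52.2%, against 28.2%). Without replicate 1 they were 5 and 32 (47.8%, against 23.1%), and without replicate 2 they were 5 and 29 (43.3%, against 22.8%). Further settings were chosen after seeing the data. Summits nearest to a TSS of the gene itself gave 4 and 22 (32.8%, against 15.7% of all). Peaks among the strongest entries of both replicates gave 4 and 23 (34.3%, against 16.5%). The 11 summits found in both replicate lists became 7 when the strongest entries alone counted. The 5 pairs of a motif and a summit became 9 within 100 bp and 10 within 150 bp, since wider windows hold more letters. Of the 3 peaks most like that of Cat, 2 remained when ranks replaced signal values. The unknown read depth limits every rank away from the top of the lists.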
